A study of Mus musculus with 2 samples.

Results

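Heat shock proteins and folding chaperones were followed in osteoclasts and macrophages grown from mouse bone marrow. The members are the genes whose symbol begins with Hspa, Hspb, Hspd, Hspe, Hsph, Hsp90 or Dnaj, or with Cct or Pdia and a digit, together with Calr, Canx and P4hb. Of the 18193 genes that the array reads, 89 met this rule, with 215 probe sets between them. The probe set whose log2 signal, averaged over the arrays, was highest stood for each gene.

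Osteoclasts came from marrow of 8-week-old C57/Black6 mice, of which adherent cells were taken after 3 days in M-CSF (macrophage colony-stimulating factor) and then given RANKL, which turns such cells into osteoclasts, along with M-CSF for 6 days. Macrophages came from the same kind of progenitor, kept for 6 days in M-CSF alone, so that M-CSF is shared by both groups. Each group is 1 array, and the labels do not say whether the arrays share animals or how many animals were pooled. With 1 array per group no test was possible, no p-value is given, and differences are described by size only.

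Chaperones bind unfolded protein chains and let them fold or hand them on. HSP70 proteins work in cycles of ATP use that J proteins (the Dnaj genes) start, and HSP90 finishes chosen client proteins such as kinases. The ring-shaped chaperonin CCT encloses actin and tubulin as they fold in the cytosol. Mitochondria have their own HSP70 (Hspa9) and chaperonin (Hspd1 and Hspe1). The endoplasmic reticulum (ER), where secreted, lysosomal and membrane proteins fold, has BiP (Hspa5), Grp94 (Hsp90b1), the lectins calnexin and calreticulin, and disulfide isomerases. Osteoclasts are known for many mitochondria, for a large actin ring and for the secretion of proteases.

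Signals are the deposited linear intensities. Signal was lower across the osteoclast array, with a median log2 difference of -0.43 over 23708 probe sets measured in both arrays, and differences below are log2 of osteoclast over macrophage relative to this shift. A signal counted as measured above the 40th percentile of its array, 14.4 in osteoclasts and 17.0 in macrophages. Probe sets of 1 gene differed among themselves with an SD of 0.49 on the log2 scale, a 1.41-fold difference. This SD is the only spread the data give, and it holds no variation between cultures, animals or arrays. The osteoclast label fits its markers, since all 8 osteoclast markers read, such as Acp5 with 8167 in osteoclasts and 104 in macrophages, were over 2-fold higher. Of the 7 macrophage markers, 6 lay below the shift and 3 were at least 2-fold lower, such as Fcgr1 with 141 in osteoclasts and 1425 in macrophages. Cd68 lay just above the shift (0.032). Csf1r, the M-CSF receptor, had 6005 in osteoclasts and 9899 in macrophages (-0.29). The arrays also differ in sex-linked genes: Xist, an RNA of female cells, gave 22.1 in osteoclasts and 1872 in macrophages, and the Y-linked gene Eif2s3y gave 321 in osteoclasts and 0.571 in macrophages. Sex of the animals and RANKL treatment therefore cannot be told apart in any difference below, nor can fewer cells of a type and less RNA per cell.

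Few chaperone genes stood 2-fold apart. Of 89 members, 75 were measured in both arrays, 3 in 1 array and 11 in neither. Among the 78 measured in at least 1 array, 1 was higher in osteoclasts by 2-fold or more beyond the shift, against 7.11% of all genes measured in the same way. The 2 members that were at least 2-fold lower made up 2.56%, against 6.99% of all genes. As deposited, with no allowance for the dimmer array, 0 members were 2-fold higher and 8 were 2-fold lower, against 3.0% and 17.5% of all genes. The 3 members past 2-fold relative to the shift, Hspa4l, Dnajb4 and Hspa1a, all act in the cytosol.

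Smaller differences varied by compartment. Over the 75 members measured in both arrays the median was 0.078 (-0.35 as deposited), and 40 lay above the shift, or 53.3%, against 48.8% of all genes measured in both. The median of all such genes was -0.017 (-0.45 as deposited). The 9 mitochondrial members had a median of 0.49 and the 7 CCT subunits one of 0.23, while the 18 ER members had a median of -0.25. The mitochondrial and ER medians were 0.74 apart, a 1.67-fold difference, which does not depend on the shift. Of the 18 ER members 1 lay above the mitochondrial median, and of the 9 mitochondrial members 1 lay below the ER median. Taking 1 probe set SD as the limit, a rule chosen after the values were seen, 13 of 75 members were higher and 7 were lower, or 17.3% and 9.33%, against 19.2% and 20.5% of all genes.

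**Figure D1:**
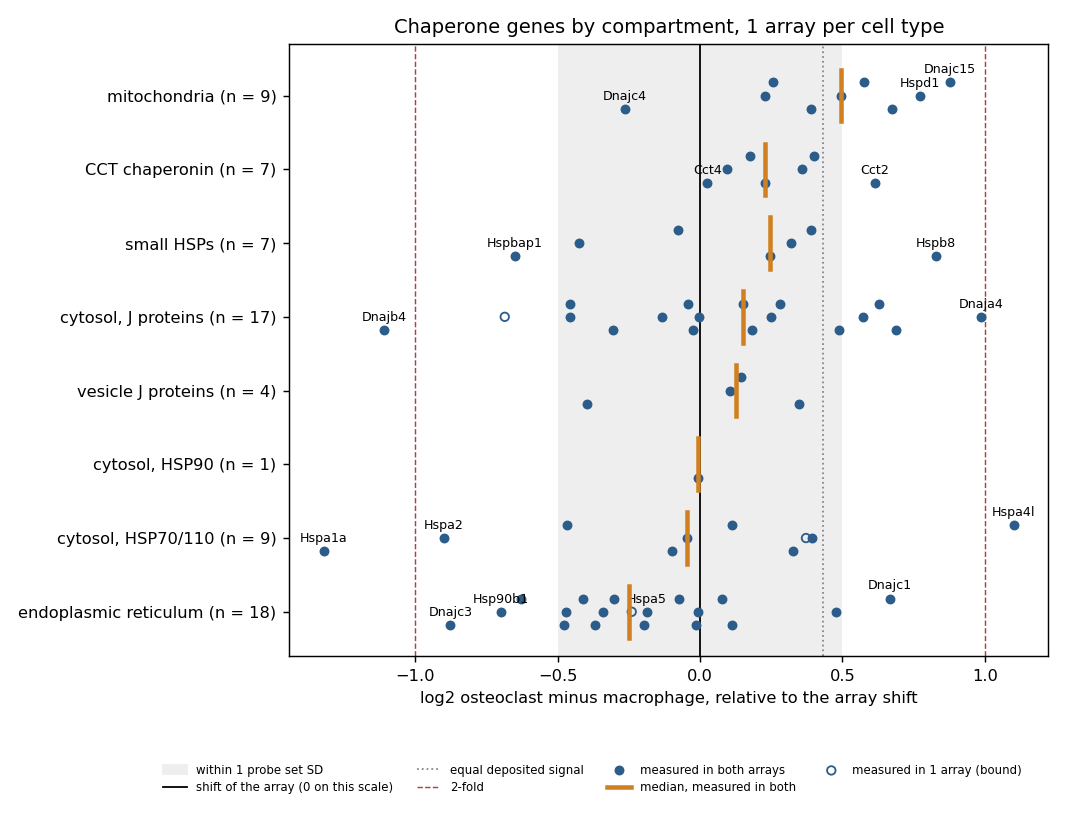
Each point is 1 chaperone gene, placed by its log2 signal in osteoclasts minus macrophages relative to the array shift (horizontal axis) and grouped by compartment (3 members measured in both arrays with no compartment assigned are not drawn). Bars are medians of members measured in both arrays, the grey band is 1 probe set SD (0.49) and dashed lines mark 2-fold. Mitochondrial genes sit to the right (median 0.49) and ER genes to the left (median -0.25), with most points inside 2-fold.

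Mitochondrial chaperones formed the highest compartment. Of the 9 members measured in both arrays, 8 lay above the shift, or 88.9%, against 48.8% of all genes. As deposited, 5 of 9 were above 0, or 55.6%, against 21.6% of all genes. None was 2-fold apart. Hspd1, the HSP60 chaperonin that encloses proteins imported into the matrix, gave 4131 in osteoclasts and 3263 in macrophages (0.77, or 1.71-fold). Hspe1, its HSP10 lid, gave 2414 in osteoclasts and 2042 in macrophages (0.67), and its other probe set gave 0.39. On the probe sets read for them, both partners of this chaperonin were thus higher in osteoclasts by similar amounts on either scale. As deposited, the other probe set of Hspe1 was slightly lower in osteoclasts (744 in osteoclasts, 766 in macrophages).

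Dnajc15, a J protein of the inner mitochondrial membrane, had the largest difference of the compartment, with 1317 in osteoclasts and 968 in macrophages (0.88, or 1.84-fold). Hspa9, the matrix HSP70 also called mortalin, gave 2127 in osteoclasts and 1925 in macrophages (0.58), but its 5 measured probe sets ranged from -0.62 to 1.33. Dnaja3, the matrix J protein that works with Hspa9, had 423 in osteoclasts and 478 in macrophages (0.26, and 0.68 on its other probe set). Dnajc11, a J protein linked to the cristae-organising complex of the inner membrane, gave 313 in osteoclasts and 300.1 in macrophages (0.49), right at the SD. Dnajc4 was the exception, at 136 in osteoclasts and 220 in macrophages (-0.26).

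The 2 chaperonin genes lie head to head on chromosome 1, and the start regions that RefSeq gives for them overlap. The window of Hspe1 is shown because both genes were higher and share the same heat shock element, the site of heat shock factors. Capitals mark the GAA and TTC units found in the RefSeq window chr1:55087898-55088197 (GRCm38.p6, + strand), which runs from 250 bases before to 50 bases after the start of Hspe1.
Hspe1: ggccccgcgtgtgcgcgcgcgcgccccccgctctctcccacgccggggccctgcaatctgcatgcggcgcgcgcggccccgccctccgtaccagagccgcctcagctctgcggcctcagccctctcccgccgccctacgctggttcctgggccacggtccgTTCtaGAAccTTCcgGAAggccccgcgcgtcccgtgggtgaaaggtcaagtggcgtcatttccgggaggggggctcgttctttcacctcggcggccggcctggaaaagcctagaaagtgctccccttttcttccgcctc

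The element GAANNTTCNNGAA, searched on both strands, so that TTCNNGAANNTTC is covered too, was held by 0.603% of the 32851 RefSeq windows of this length. Windows were found for 75 members, and 4 of these held the element. They were Hspd1, Hspe1, Hsph1 and Dnajb6, and all 4 lay above the shift, from 0.28 to 0.77. Hspd1 and Hspe1 share the same site and are not independent. The search allowed no mismatch. It gave no match for the stress-inducible members Hspa1a (-1.32), Hspa1b (-0.47), Hspb1 (-0.42), Hsp90aa1 (-0.0080) and Dnajb1 (0.15), most of them below the shift. The matches of Hsph1 and Dnajb6, with 5 bases on either side where the window allows, are shown for comparison, the units in capitals.
Hsph1 (chr5:149636288-149636300, + strand): aGAActTTCcaGAAtctgc
Dnajb6 (chr5:29735852-29735864, + strand): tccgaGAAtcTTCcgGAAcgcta
Genes other than members with this element did not lean to either side. Of 54 measured in both arrays, 28 lay above the shift and 26 below it, with a median of 0.025.

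CCT subunits were close to each other and to the shift. All 7 ring subunits measured lay above it, between 0.026 and 0.61, against 48.8% of all genes. As deposited, 1 of the 7 was above 0, or 14.3%, against 21.6% of all genes. Cct2 gave 3675 in osteoclasts and 3240 in macrophages (0.61), and its 3 probe sets ran from -0.084 to 0.61. Cct3 gave 3040 in osteoclasts and 3107 in macrophages (0.40), with 5 measured probe sets that were all above the shift and reached 0.93. Cct8 (1965 in osteoclasts, 2069 in macrophages) differed by 0.36.

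The other CCT subunits stood nearer the shift. Cct6a (3221 in osteoclasts, 3712 in macrophages) differed by 0.23 and Cct5 (2880 in osteoclasts, 3441 in macrophages) by 0.18. Cct7 (1916 in osteoclasts, 2423 in macrophages) differed by 0.094. Cct4 gave 2726 in osteoclasts and 3614 in macrophages (0.026), and its 6 measured probe sets spread from -0.73 to 0.49. The subunits form 1 ring in fixed proportion, and their differences lay within 0.59 of each other on the log2 scale. Cct6b and Cct8l1 were below the floor in both arrays. Tcp1, the subunit whose name the rule does not cover, gave 2938 in osteoclasts and 3044 in macrophages (0.38), inside the range of the others.

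**Figure D2:**
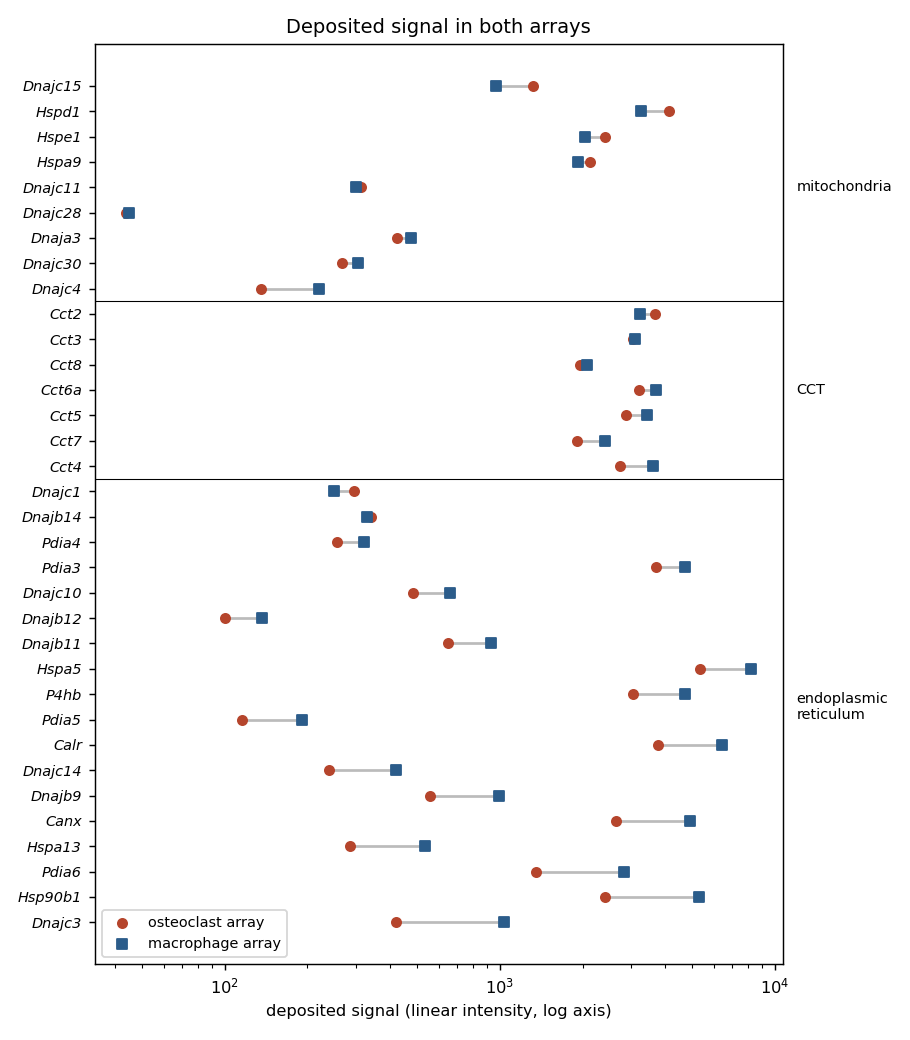
Deposited signal (log axis) of each mitochondrial, CCT and ER member measured in both arrays, circles for the osteoclast array and squares for the macrophage array, ordered by difference within a compartment. Osteoclast circles lie right of the macrophage squares for 5 of 9 mitochondrial genes and left of them for 16 of 18 ER genes. The array as a whole was 1.35-fold dimmer in osteoclasts.

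In the cytosol, constitutive HSP70 and inducible HSP90 lay near the shift on their brightest probe sets. The inducible HSP70 genes lay below it on the probe sets read for them, but probe sets of Hspa1b disagreed in direction. Hspa8, the everyday HSP70, gave 8508 in osteoclasts and 10622 in macrophages (0.11). All 4 of its probe sets were above the shift, from 0.11 to 1.08, the highest on a much dimmer probe set (90.6 in osteoclasts, 57.9 in macrophages). Hspa1a, the heat-inducible HSP70, gave 28.4 in osteoclasts and 95.7 in macrophages (-1.32), the largest difference of any member. Its osteoclast signal was close to background, since 78 probe sets of olfactory and vomeronasal receptors, genes not known in these cells, had a 95th percentile of 25.8 there. Hspa1b, a near-identical copy, gave 179 in osteoclasts and 335 in macrophages (-0.47), but its other probe sets lay above the shift, at 0.32 and 0.78. Probes for these copies may bind either transcript, so that neither value is firm.

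Other stress-inducible genes stayed within 1 SD on the probe sets read for them, and Hspb1 was below the shift on each of its probe sets. Hsp90aa1, the inducible cytosolic HSP90, gave 3765 in osteoclasts and 5110 in macrophages (-0.0080), with its 4 probe sets measured in both arrays from -0.16 to 0.36. Hsp90ab1, the constitutive form, is not analysed here. Dnajb1, the J protein that serves inducible HSP70, gave 584 in osteoclasts and 710 in macrophages (0.15, and 0.56 on its other probe set). Hsph1, an HSP110 that recharges HSP70 with nucleotide, gave 616 in osteoclasts and 634 in macrophages (0.39, and 0.14 on its other probe set). Hspb1, the small heat shock protein HSP27 that also binds actin filaments, gave 411 in osteoclasts and 745 in macrophages (-0.42, and -0.60 on its other probe set).

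Hspa4l and Hspa4, relatives of Hsph1 with the same exchange role, differed in size. Hspa4l was the 1 member to pass 2-fold upward, with 282 in osteoclasts and 178 in macrophages (1.10, or 0.67 as deposited). Its 5 probe sets were all above the shift, from 0.37 to 1.10. Hspa4 gave 1596 in osteoclasts and 1720 in macrophages (0.32), while its other probe sets measured in both arrays gave -0.043 and -0.79. Hspa2, known for its role in sperm formation, was dim, with 30.8 in osteoclasts and 77.5 in macrophages (-0.90).

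The cytosolic J proteins lay on either side of the shift. Of 17 measured in both arrays, 9 were above it, or 52.9% against 48.8% of all genes, and 8 below, with a median of 0.15. Dnaja1, a class A J protein that helps HSP70 refold proteins, gave 2626 in osteoclasts and 2387 in macrophages (0.57), with its 3 probe sets from -0.0073 to 0.57. Its relative Dnaja2 gave 2205 in osteoclasts and 2985 in macrophages (-0.0044), with other probe sets up to 0.58. Dnaja4 stood just short of 2-fold (0.99) at 34.0 in osteoclasts and 23.1 in macrophages, and the macrophage signal was within the range of background. Its other probe sets reached down to -0.047. Dnajb4, a class B J protein, was 2-fold lower, with 310 in osteoclasts and 903 in macrophages (-1.11, or 2.16-fold). Another probe set gave -1.10, and the last, dim in both arrays, gave 0.082.

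Of the J proteins with tasks outside folding, Dnajc8, a nuclear protein tied to splicing, had 1151 in osteoclasts and 2135 in macrophages (-0.46, and -0.054 on its other probe set). Dnajc9, which handles histones, was likewise at -0.46 (430 in osteoclasts, 796 in macrophages). Other J proteins of the cytosol and nucleus lay above the shift. Dnajc17 was at 0.63 (389 in osteoclasts, 340 in macrophages), and at 0.88 on its other probe set measured in both arrays. Dnajc21 was at 0.49, but at -0.66 on its other probe set measured in both arrays, and Dnajc2 was at 0.18. The vesicle J proteins stayed within 1 SD on the probe sets read for them. Dnajc5, the cysteine string protein of secretory vesicles, gave 589 in osteoclasts and 738 in macrophages (0.11), with its 5 probe sets from -0.78 to 0.12. Dnajc13, which acts on early endosomes, gave 565 in osteoclasts and 600.3 in macrophages (0.35, and 0.98 on its other probe set). Dnajc27, which carries a Rab-like GTPase domain, was at -0.40 (35.1 in osteoclasts, 62.4 in macrophages), and its other probe set gave 0.11. Of the members grouped by symbol with the small heat shock proteins, which need not all belong to that family, Hspb11 (0.32), Hspb6 (-0.076) and Hspb2 (0.24) were within the SD. Hspb8, a partner of Bag3 in autophagy of aggregates, was at 0.83 with signals near background (31.9 in osteoclasts, 24.3 in macrophages). The other probe sets of Hspb8, below the floor in osteoclasts, went the other way, at -0.88 and -0.77. Hspbap1, the lowest of this group, was past the SD downward at -0.65 (38.3 in osteoclasts, 81.2 in macrophages). Its other probe sets were below the floor in osteoclasts.

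The members below the floor in both arrays were Hspa12b, Hspa1l, Hspb3, Hspb9, Dnajb3, Dnajb7, Dnajc22, Dnajc5g, Dnajc6, Cct6b and Cct8l1. Dnajb8 (13.0 in osteoclasts, 31.3 in macrophages) and Pdia2 (1.52 in osteoclasts, 23.0 in macrophages) were measured in macrophages only, and Hspa12a (16.3 in osteoclasts, 15.7 in macrophages) in osteoclasts only. All 3 are close to the level of background. Dnajc18 (-0.17), Dnajc16 (0.010) and Dnajc25 (-0.14), for which no compartment was assigned, were near the shift.

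ER chaperones were the lowest compartment. Of 18 members measured in both arrays, 14 lay below the shift, and 4 above it, or 22.2%, against 48.8% of all genes. As deposited, 2 were above 0, or 11.1%, against 21.6% of all genes. Relative to the shift 0 were 2-fold lower. In the deposited values 3 of 19 measured in at least 1 array were, or 15.8%, a share close to the 17.5% of all genes. Hspa5, the ER HSP70 known as BiP, gave 5343 in osteoclasts and 8213 in macrophages (-0.19), and its 3 probe sets ran from -0.29 to -0.18. Hsp90b1, the ER form of HSP90 that folds integrins and Toll-like receptors, gave 2412 in osteoclasts and 5293 in macrophages (-0.70, or 1.63-fold), but its other probe set gave 0.19.

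The HSP70 relatives and luminal J proteins of the BiP cycle differed in size, from near the shift to the lowest ER value. Dnajc3, a luminal J protein also called p58IPK, had the largest difference in the ER, with 420 in osteoclasts and 1040 in macrophages (-0.88, or 1.84-fold). Its 5 probe sets were all below the shift, from -1.54 to -0.27. Hspa13, a microsomal HSP70 relative, gave 284 in osteoclasts and 535 in macrophages (-0.48), with its 4 probe sets from -1.19 to -0.38. Dnajb9, a J protein that restrains the sensor Ire1, gave 556 in osteoclasts and 996 in macrophages (-0.41). Dnajb11 (651 in osteoclasts, 926 in macrophages) and Dnajc10, a J protein that reduces disulfides (485 in osteoclasts, 657 in macrophages), stood at -0.075 and -0.0065, and the other probe sets of Dnajc10 were above the shift, at 0.37 and 0.63.

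The lectins, which hold glycoproteins during folding, were lower on every probe set. Calr, calreticulin, gave 3748 in osteoclasts and 6410 in macrophages (-0.34), with its 3 probe sets between -0.65 and -0.30. Canx, calnexin, gave 2635 in osteoclasts and 4925 in macrophages (-0.47), with its 3 probe sets between -0.65 and -0.37.

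Disulfide isomerases ranged from -0.63 to 0.11. Pdia6 gave 1359 in osteoclasts and 2836 in macrophages (-0.63, and -0.51 on its other probe set). P4hb, the main isomerase and a subunit of the collagen prolyl hydroxylase, gave 3054 in osteoclasts and 4720 in macrophages (-0.20). Pdia5 gave 115 in osteoclasts and 192 in macrophages (-0.30). Pdia3, which works with the lectins and in loading of MHC class I, gave 3694 in osteoclasts and 4724 in macrophages (0.078), but its other, dim probe set gave -0.90. Pdia4 gave 257 in osteoclasts and 321 in macrophages (0.11). The largest difference towards osteoclasts in the ER was in Dnajc1, a membrane J protein that also touches the ribosome, with 295 in osteoclasts and 250.5 in macrophages (0.67), and its 3 probe sets measured in both arrays were all above the shift.

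**Figure D3:**
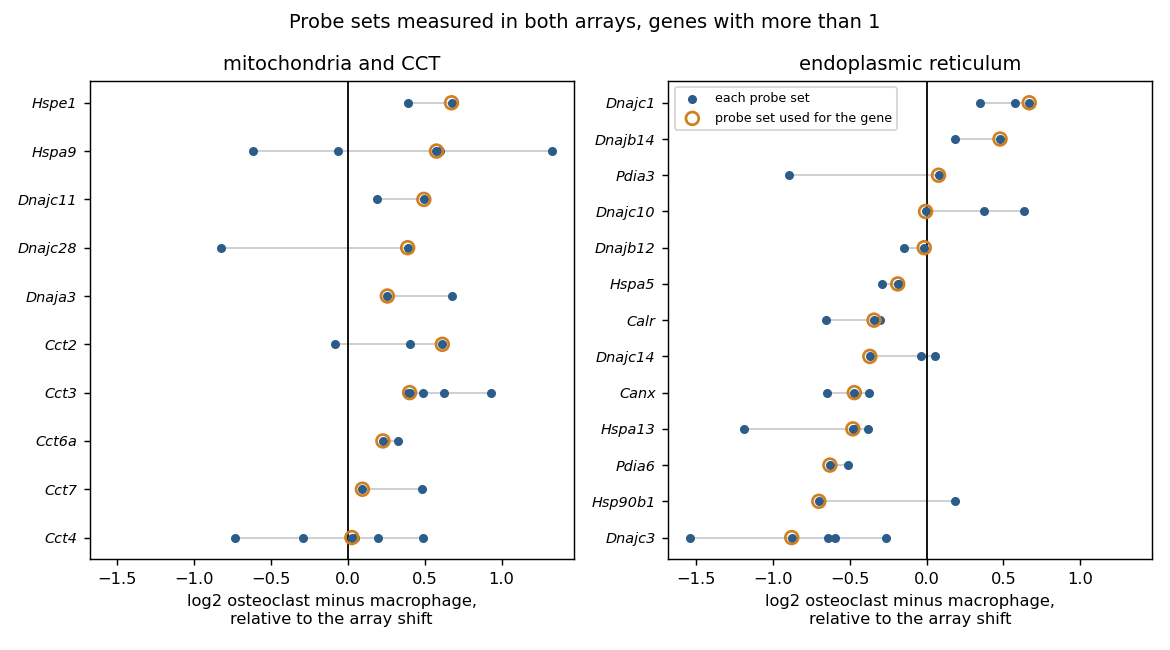
Log2 difference, osteoclast minus macrophage relative to the shift (horizontal axis), of every probe set measured in both arrays, for mitochondrial and CCT genes (left) and ER genes (right) with more than 1 such probe set. Open circles mark the probe set read for the gene. All probe sets of 7 of 13 ER genes lie left of the shift, and those of 3 of 5 mitochondrial genes lie right of it.

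Agreement between probe sets was partial. Of 48 members measured in both arrays with more than 1 measured probe set, 27 had all of them on 1 side of the shift and 21 had some on either side. In the ER 7 of 13 such genes had every probe set below the shift, 2 had every one above it and 4 were mixed. In mitochondria 3 of 5 had every probe set above the shift and 0 had every one below it.

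Markers of other cells moved between the arrays as well. Of 13 granulocyte markers 11 had a probe set, and 9 passed 2-fold upward in osteoclasts, with a summed signal of 6669 in osteoclasts and 3830 in macrophages. Elane and Ctsg were below the floor in macrophages. Of 12 stromal and osteoblast markers 10 had a probe set, and their summed signal was 7370 in osteoclasts and 12892 in macrophages. Of the 8 measured in both arrays 3 lay above and 5 below the shift, and the collagen genes differed in direction, with Col1a2 at -0.56, Col1a1 at -0.16 and Col3a1 at 1.14. Lum was below the floor in both arrays. Of 9 lymphocyte markers 8 had a probe set, with a summed signal of 268 in osteoclasts and 750.2 in macrophages, and Cd79a, Cd3e and Cd3g were below the floor in both. The part of these cells in the chaperone values was not tested. The ratio of 3' to 5' signal, a sign of RNA integrity, was 0.862 in osteoclasts and 0.748 in macrophages for Gapdh, and 1.21 in osteoclasts and 1.23 in macrophages for beta-actin.

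The ER stress response element, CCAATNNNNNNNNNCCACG, is known as the site through which Atf6 and NF-Y drive ER chaperone genes when unfolded protein builds up. It was found on either strand in the windows of 6 members, all of the ER, and in 0.119% of all windows. The 6 were Hspa5, Hsp90b1, Calr, Canx, Pdia6 and Dnajc3, and all 6 lay below the shift, from -0.88 to -0.19, with a median of -0.55. The matches are shown because these genes include the 3 lowest ER members, Dnajc3, Hsp90b1 and Pdia6. Each is given on the strand that reads CCAAT first, with 5 bases on either side (GRCm38.p6), and capitals mark the fixed letters.
Hspa5 (chr2:34772025-34772043, + strand): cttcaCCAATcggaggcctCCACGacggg
Hsp90b1 (chr10:86705533-86705551, + strand): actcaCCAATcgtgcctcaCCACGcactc
Hsp90b1, farther from the start (chr10:86705638-86705656, - strand): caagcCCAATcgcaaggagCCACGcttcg
Calr (chr8:84847075-84847093, + strand): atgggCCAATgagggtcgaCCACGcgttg
Canx (chr11:50325800-50325818, - strand): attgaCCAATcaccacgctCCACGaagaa
Pdia6 (chr12:17266491-17266509, + strand): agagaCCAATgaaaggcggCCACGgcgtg
Dnajc3 (chr14:118937827-118937845, + strand): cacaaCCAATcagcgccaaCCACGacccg
The centres of these matches lay at -203 to -56 bases from the start of the gene.

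The window of Hspa5 is given whole, since BiP is the usual reference gene for this element (chr2:34771840-34772139, GRCm38.p6, + strand, match in capitals).
Hspa5: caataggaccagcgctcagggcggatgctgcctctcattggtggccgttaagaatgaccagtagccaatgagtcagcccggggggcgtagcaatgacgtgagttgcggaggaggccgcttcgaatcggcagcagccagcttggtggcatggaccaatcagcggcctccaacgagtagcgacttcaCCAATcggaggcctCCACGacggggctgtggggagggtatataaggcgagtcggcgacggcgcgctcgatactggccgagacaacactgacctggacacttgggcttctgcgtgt
Outside the members, 6 genes with the element were measured in both arrays, and 3 lay above and 3 below the shift. Those above were Adcy3 (1.39), Pan2 (0.73) and the ER glycosylation gene Alg12 (0.0066), and those below were the ER genes Creld2 (-0.39), Ero1b, an oxidase that recharges disulfide isomerases (-0.75), and Syvn1, a ubiquitin ligase of ER-associated degradation (-0.015). Also holding the ER stress response element, but measured in 1 array only, were Derl3 (-1.75, macrophages) and Spats2l (0.45, osteoclasts). For these the signal of the other array was raised to the floor. A related element, ATTGGNCCACG, was held by 1 member, Dnajb11, and by 0.0365% of all windows. Herpud1, a partner in ER-associated degradation, held it too and was higher in osteoclasts (1.36). Of the 7 genes other than members with this related element measured in both arrays, 5 lay above the shift and 2 below it, with a median of 0.096. Shorter motifs were also searched on both strands: GAANNTTC, which is part of the heat shock element, was in 19.1% of member windows and 7.86% of all windows. TGACGTG was in 3.19% of member windows and 2.01% of all windows. CCAAT, part of the ER element, was in 42.6% of member windows and 37.4% of all windows, and TATAA in 16% of member windows and 24.9% of all windows. A match is a description of the letters in the window.

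Partner genes outside the families, given from 1 probe set each, were again highest for mitochondria, followed by the helpers of CCT. The low position of the ER members was not repeated. ER partners had a median of -0.061, near that of the cochaperones (-0.058) and of all genes (-0.017). All 13 measured mitochondrial chaperones and proteases lay above the shift, against 48.8% of all genes, with a median of 0.57 (0.14 as deposited). As deposited, 8 of the 13 were above 0, or 61.5%, against 21.6% of all genes. Lonp1, the matrix protease that clears damaged proteins, was over 2-fold higher, with 464 in osteoclasts and 267 in macrophages (1.23). Grpel1 (0.69), the nucleotide exchange factor of Hspa9, gave 1036 in osteoclasts and 869 in macrophages. Trap1, the mitochondrial HSP90, gave 713 in osteoclasts and 647 in macrophages (0.57).

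The 9 genes of Tcp1, prefoldin and the phosducin-like helpers, which pass actin and tubulin to CCT, were all above the shift too. Their median was 0.28 (-0.15 as deposited), and 3 were above 0 as deposited, or 33.3%, against 21.6% of all genes. Pfdn4 gave 820 in osteoclasts and 602 in macrophages (0.88), and Pfdn5 gave 1615 in osteoclasts and 2121 in macrophages (0.040). Heat shock factors and the cochaperones of HSP70 and HSP90 were spread about the shift, with a median of -0.058 over 20 genes. Ahsa1, which speeds the HSP90 cycle, was at -0.68 (1326 in osteoclasts, 2874 in macrophages). Hsf4 passed 2-fold (1.05) but was dim, with 47.9 in osteoclasts and 31.3 in macrophages.

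Genes of the unfolded protein response lay on both sides of the shift, 9 above (64.3%, against 48.8% of all genes) and 5 below. Those below, as most ER chaperones were, were Xbp1, Atf6, Atf6b (-0.25), Mbtps2 (-0.16) and Trib3. The 14 genes centred on 0.25 (-0.18 as deposited), with 2 at least 2-fold higher and 0 lower. The 2 genes past 2-fold relative to the shift are known targets of the Atf4 arm. Ppp1r15a, the phosphatase subunit that ends the block on translation, gave 271 in osteoclasts and 140 in macrophages (1.39), and Chac1, which breaks down glutathione, gave 121 in osteoclasts and 72.6 in macrophages (1.17). Atf4 itself gave 1484 in osteoclasts and 1154 in macrophages (0.80), and its target Asns, asparagine synthetase, gave 873 in osteoclasts and 616 in macrophages (0.93). Trib3 (-0.19) and Ddit3 (0.14), further targets, stayed within the SD.

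The other arms were nearer the shift. Xbp1, the factor spliced by Ire1, gave 2082 in osteoclasts and 3184 in macrophages (-0.18), Atf6 gave 322 in osteoclasts and 524 in macrophages (-0.27), and Ern1, which encodes Ire1, gave 263 in osteoclasts and 354 in macrophages (0.00015). The array does not show splicing of Xbp1 or cleavage of Atf6. Other ER folding and degradation genes, 30 in number, centred on -0.061 (-0.49 as deposited). Of these 11 lay above the shift, or 36.7%, against 48.8% of all genes, and 19 below it. Herpud1, named above, gave 464 in osteoclasts and 244 in macrophages. Derl3, a channel component of ER-associated degradation, was measured in macrophages only, with 9.87 in osteoclasts and 65.3 in macrophages (-1.75 with the osteoclast signal raised to the floor).

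**Figure D4:**
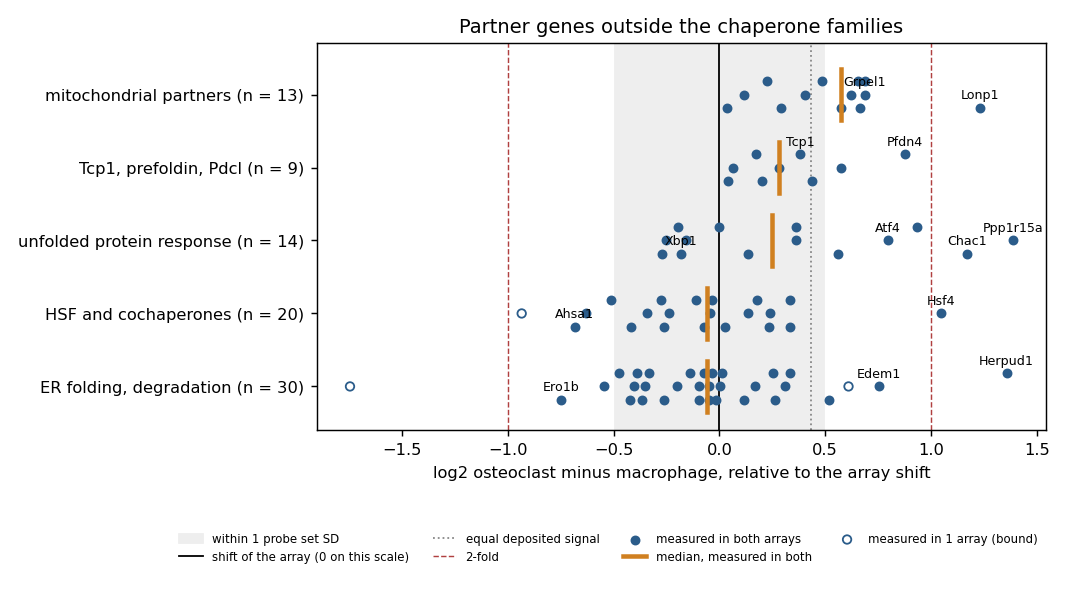
Each point is 1 partner gene outside the chaperone families, placed by its log2 signal in osteoclasts minus macrophages relative to the shift (horizontal axis), with open points for genes measured in 1 array. Bars are medians of genes measured in both arrays: 0.57 for mitochondrial partners, 0.28 for Tcp1, prefoldin and phosducin-like genes, 0.25 for the unfolded protein response, -0.058 for heat shock factors and cochaperones and -0.061 for ER folding and degradation.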

How the data were processed

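RNA of 1 osteoclast and 1 macrophage culture was hybridised to Affymetrix arrays, per the labels' protocols. The deposited values are linear intensities, 1 per probe set, and the sources used here do not say how the authors condensed, corrected and scaled them. Control probe sets (64 of 45101) were left out, and only the 34945 probe sets with 1 gene symbol in the platform annotation were used; 3 probe sets with several symbols that the rule would match were not. The Entrez identifiers of all 89 members were found in the RefSeq table of GRCm38.p6. Values below the floor (40th percentile of the array) were raised to it before log2 was taken. The shift is the median difference of probe sets measured in both arrays. The members and gene lists were chosen with earlier results of these data known; roles and the promoter motifs were chosen after the values were seen. Genes named were, per compartment, the 3 brightest, all members 2-fold apart and a fixed core set; from each partner list, genes 2-fold apart or the 2 brightest; others named were chosen after their values were seen. The calculation was tested on simulated arrays (Python 3.11.15, pandas 2.3.3). Promoter windows come from RefSeq. The alternatives were no centring, quantile normalization, no floor, a floor at the 60th percentile, a pseudocount of 16, the mean of all measured probe sets, and a preference for probe sets whose identifier does not mark shared sequence (_x_at, _s_at).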

Additional observations from a re-analysis of the deposited data

How the results depend on the processing

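No paired analysis was possible because each group is 1 array. The count of members at least 2-fold higher (1) was 0 as deposited, with a pseudocount of 16 and with the mean of all probe sets, and 13 with 1 probe set SD as the limit, a rule added after seeing the data. The count at least 2-fold lower (2) was 8 as deposited, 1 with the floor at the 60th percentile, with the pseudocount and with the mean of all probe sets, and 7 with 1 probe set SD; fewer members pass the higher floor by construction, and the cause was not tested for the others. Over the other 7 settings the mitochondrial median stayed above 0 (0.061 to 0.58) and the ER median below 0 (-0.68 to -0.21), whereas the CCT median ran from -0.20 to 0.29 and that of the unfolded protein response from -0.18 to 0.34. Of 1158 values of the 167 measured members and partner genes under these settings, 22 moved by more than 1 probe set SD, and 0 of those past 2-fold changed sign. Hspa1a was at -0.80 with the higher floor and Hspa1b at 0.21 with the mean of its probe sets. Signals under about 30 are near background, and only 1 array per group limits every value.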
